A study of Mus musculus with 6 samples.

Results

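The genes described here are 7 protein-coding genes best known from tissues other than T cells: Fscn1, Krt16, Aqp4, Fer1l6, Dagla, Aoc1 and Wnt3. They were picked from the 15452 genes of the deposited table because their counts were near 0 in WT Th17 cultures and much higher in PDH knockout cultures. The levels and differences that chose them are therefore given as a description, without a test. The study has 6 RNA-seq libraries of mouse Th17 cells, a helper T cell type named for its cytokine interleukin 17. The WT group (3 libraries) carried floxed alleles, spelled PHD-fl/fl in the sample titles and PDHfl/fl in the protocol, and no Cre. The PDH knockout group (3 libraries) carried the same floxed alleles with CD4 Cre, a recombinase driven by the Cd4 gene's control elements, which act in developing and mature T cells. Cre was present in the knockout group alone, so its effect and that of the deletion cannot be told apart. Naive CD4+ cells from spleen and lymph nodes were purified on magnetic beads and cultured for 3 days with plate-bound anti-CD3 (5 µg/mL), anti-CD28 (1 µg/mL), anti-IFNγ (5 µg/mL), IL-6 (30 ng/mL) and TGFβ (2 ng/mL). Neither the age of the mice nor whether each replicate was a separate mouse is stated in the labels; every p-value therefore speaks of sample-to-sample spread, which may be technical.

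Library totals ran from 33802154 to 40407124 counts. Levels are given as CPM, counts scaled to a common library size after TMM normalization. The 9 T cell markers and 8 Th17 markers all had counts. Marker sums, here and below, are CPM of library totals without TMM, and both were lower in knockout (2630 to 2870 against 3230 to 3260 CPM, and 788 to 1020 against 1050 to 1360 CPM). Pdha1, which encodes the E1 alpha subunit of pyruvate dehydrogenase, was at 248 ± 10.2 CPM in WT against 193 ± 6.33 CPM in knockout (SD, n = 3 each, edgeR adjusted p = 0.000871). Which gene was floxed is not stated in the labels, and whole-gene counts cannot show whether an exon was lost. Among 15361 tested genes, 7311 passed the edgeR quasi-likelihood test at a Benjamini-Hochberg adjusted p under 0.05 (called below), which is 47.6%. Higher calls were 3548 (23.1%) and lower calls 3763 (24.5%), and with upper-quartile scaling 4382 and 2927. Knockout replicate 2 stood apart from the other knockout libraries (chi-square per degree of freedom 156.29 and 145.79, against 30.59 between those). Summed B cell markers were raised in 3 libraries, WT replicate 2 and knockout replicates 2 and 3 (30.7 to 100 CPM, against 4.77 to 5.67 CPM in the other 3).

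In animals these genes are used far apart. Fascin, from Fscn1, bundles actin filaments in filopodia and in the dendrites of neurons and mature dendritic cells, and keratin 16 is an intermediate filament protein of stressed epidermis. Aquaporin 4 is the water channel of astrocyte endfeet, and Fer1l6 encodes a ferlin, a family of membrane proteins with repeated C2 domains of which some members act in membrane fusion and repair. Dagla makes the endocannabinoid 2-arachidonoylglycerol, mainly at synapses, Aoc1 encodes a secreted diamine oxidase that degrades histamine and putrescine and is abundant in gut and kidney, and Wnt3 is a secreted ligand needed for the body axis of the embryo. These roles are background; nothing was measured here on protein or on cell function.

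All 7 genes lay close to the detection limit in WT. Their counts in the WT libraries ran from 2 (Wnt3, replicate 1) to 27 (Fscn1, replicate 2), and in the knockout libraries from 38 (Wnt3, replicate 1) to 933 (Fscn1, replicate 1). Every knockout value was above every WT value in 7 of 7 genes. That pattern was seen in 28.8% of all tested genes and the reverse one in 29.4%, and since it follows from how the genes were chosen nothing is read from it. Every gene of the table reached 10 counts in at least 3 libraries. Krt16, Fer1l6 and Wnt3 (3 of 7) reached 10 counts in at most 1 WT library, so they owe their place in the table to the knockout libraries. By size of increase they stood between places 10 and 46 of the 15361 tested genes. In bulk RNA, more cells with a transcript and more transcript per cell cannot be told apart.

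**Figure D1:**
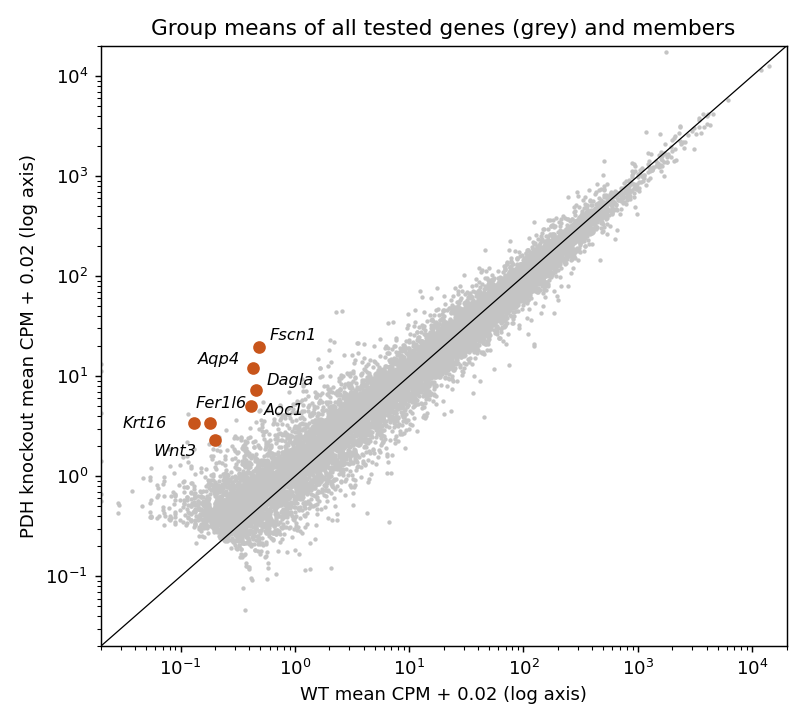
Mean CPM of the 15361 tested genes in WT (x axis) against PDH knockout (y axis), both on log axes after adding 0.02 CPM. The diagonal marks equal levels, and the 7 named genes (orange) lie at 0.112 to 0.464 CPM in WT against 2.28 to 19.6 CPM in knockout.

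Fscn1 (ENSMUSG00000029581.15) and Krt16 (ENSMUSG00000053797.11) are the cytoskeletal genes. Fscn1 was at 0.216, 0.707 and 0.47 CPM in WT replicates 1 to 3 and at 23.1, 14.6 and 21.2 CPM in knockout replicates 1 to 3. The log2 fold change of knockout over WT was 5.39 ± 0.36 (SE), and the lowest knockout library was 20.6 times the highest WT library. Krt16 was at 0.0811, 0.157 and 0.0988 CPM in WT against 3.24, 2.63 and 4.28 CPM in knockout, a log2 fold change of 4.87 ± 0.33. Its WT counts were only 3, 6 and 4, so the fold rests on few reads. Keratin genes resemble each other in sequence, and how reads shared by them were divided is not stated in the labels, so their levels are uncertain to that extent.

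The membrane genes are Aqp4 (ENSMUSG00000024411.12) and Fer1l6 (ENSMUSG00000037106.9). Aqp4 was at 0.432, 0.341 and 0.445 CPM in WT against 12.4, 11.1 and 12.8 CPM in knockout (4.88 ± 0.17). It was the most even of the 7, with a coefficient of variation of 14.0% in WT and 7.43% in knockout. Fer1l6 was at 0.135, 0.0786 and 0.272 CPM in WT against 3.98, 3.01 and 3.29 CPM in knockout (4.36 ± 0.35). WT counts of Fer1l6 were 5, 3 and 11, and without WT replicate 3 its log2 fold change was 4.96.

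Dagla (ENSMUSG00000035735.11) and Aoc1 (ENSMUSG00000029811.15) are the enzyme genes. Dagla was at 0.378, 0.681 and 0.247 CPM in WT against 7.67, 6.30 and 7.85 CPM in knockout (4.06 ± 0.31). Aoc1 was at 0.324, 0.445 and 0.42 CPM in WT against 6.86, 3.78 and 4.50 CPM in knockout (3.66 ± 0.28). Within the knockout group Aoc1 was highest in replicate 1, 1.81 times replicate 2, while the Dagla values had a coefficient of variation of 11.7%.

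Wnt3 (ENSMUSG00000000125.6), the ligand, was the least even of the 7 in knockout. It was at 0.054, 0.262 and 0.222 CPM in WT against 0.941, 3.21 and 2.69 CPM in knockout, a log2 fold change of 3.63 ± 0.61. Its knockout libraries differed by 3.41 times, with replicate 1 low, whereas in the other 6 genes they differed by at most 1.81 times. The lowest knockout value was 3.59 times the highest WT value.

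**Figure D2:**
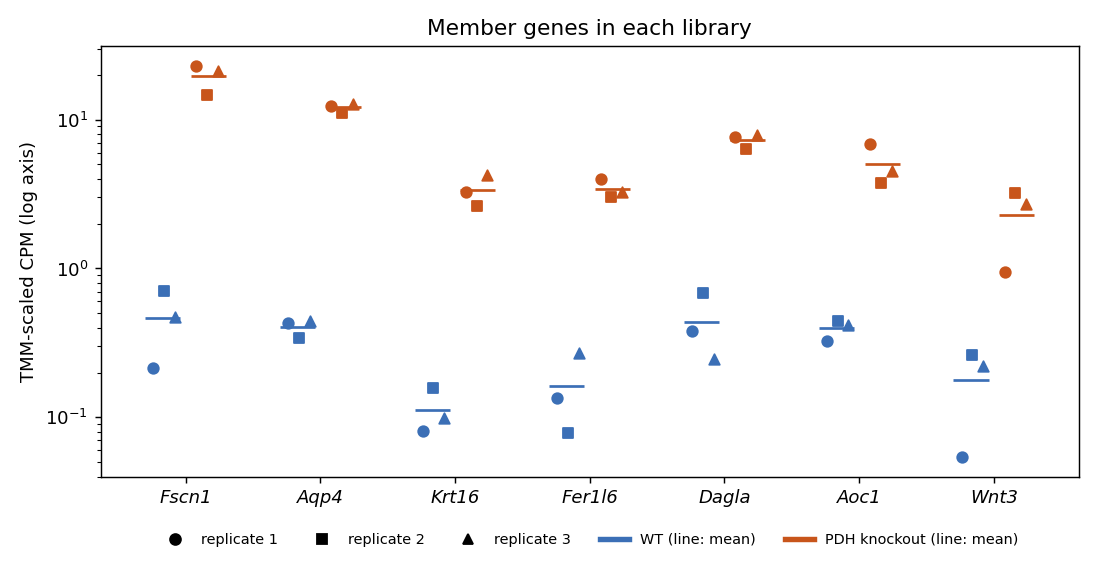
TMM-scaled CPM (log axis) of the 7 genes in each library, with WT in blue, PDH knockout in orange, a symbol per replicate number and a line at each group mean. The groups do not overlap in any of the 7 genes, and knockout replicate 1 of Wnt3 (0.941 CPM) is the only knockout value under 2 CPM.

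Per kilobase of merged exon, on the GENCODE M21 models, the mean knockout level was 6.52 CPM per kb for Fscn1, 2.17 for Krt16, 1.94 for Aqp4, 1.55 for Aoc1, 1.27 for Dagla, 0.74 for Wnt3 and 0.426 for Fer1l6. On that per-length scale Fscn1 stood at the 10.3rd percentile of 15056 genes in WT and at the 59.2nd in knockout. The other 6 stood between the 0.7th and 8.3rd percentile in WT and between the 16.9th and 37.1st in knockout. So in knockout Fscn1 reached the middle of the genes tested, while the others stayed among the weakly expressed ones. Of neighbours in this order, Krt16 and Aqp4, Aqp4 and Aoc1, Aoc1 and Dagla, and Wnt3 and Fer1l6 differed by less than the SD of the more variable gene of each pair; Fscn1 and Krt16, and Dagla and Wnt3, differed by more.

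RefSeq promoter windows (GRCm38.p6) were matched for 3 of the 7 genes, Fscn1, Aoc1 and Wnt3, with Aoc1 having 2 starts. They are shown as a description of the upstream sequences. The shared direction of the genes follows from how they were chosen. Each line gives the 250 bases before the start, 5′ to 3′ on the gene's strand, with searched motifs in capitals.
Fscn1, chr5:142960105-142960354, + strand: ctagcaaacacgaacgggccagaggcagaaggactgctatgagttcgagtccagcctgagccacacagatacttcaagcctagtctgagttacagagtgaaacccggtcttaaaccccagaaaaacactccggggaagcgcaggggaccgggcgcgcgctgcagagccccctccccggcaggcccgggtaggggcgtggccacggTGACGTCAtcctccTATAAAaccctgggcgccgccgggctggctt
Aoc1, upstream start, chr6:48895005-48895254, + strand: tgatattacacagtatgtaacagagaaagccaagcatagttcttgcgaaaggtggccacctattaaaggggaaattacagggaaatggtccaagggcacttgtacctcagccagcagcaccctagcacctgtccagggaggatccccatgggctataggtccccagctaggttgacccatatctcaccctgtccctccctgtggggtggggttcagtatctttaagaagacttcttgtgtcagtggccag
Aoc1, downstream start, chr6:48904736-48904985, + strand: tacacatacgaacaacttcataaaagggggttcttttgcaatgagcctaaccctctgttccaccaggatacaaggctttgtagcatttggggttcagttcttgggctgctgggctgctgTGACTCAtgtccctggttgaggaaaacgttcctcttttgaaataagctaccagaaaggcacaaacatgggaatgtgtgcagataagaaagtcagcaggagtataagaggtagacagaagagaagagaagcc
Wnt3, chr11:103773925-103774174, + strand: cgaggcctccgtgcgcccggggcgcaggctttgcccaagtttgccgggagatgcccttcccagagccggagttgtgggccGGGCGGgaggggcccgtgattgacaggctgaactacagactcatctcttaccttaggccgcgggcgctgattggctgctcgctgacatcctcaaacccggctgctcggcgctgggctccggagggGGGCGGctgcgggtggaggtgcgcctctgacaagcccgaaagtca

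Both strands were searched for TATAAA (the TATA box), GGGCGG (the GC box), CACGTG (an E-box), TGANTCA (the AP-1 site) and TGACGTCA (the cAMP response element), and no matches overlapped. The Fscn1 window held TGACGTCA beginning 45 bases before the start and TATAAA at 31. Of all 32851 RefSeq windows of this length, 1.55% held TGACGTCA and 12.4% held TATAAA. The downstream Aoc1 window held 1 TGANTCA match (in 6.75% of all windows) and the upstream one held none of the 5 motifs. The Wnt3 window held GGGCGG at 170 and 45 bases (in 32.7% of all windows). The ratio of observed to expected CpG was 0.74 for Fscn1 and 0.77 for Wnt3, above the median of 0.37 over all windows, and 0.06 and 0.16 for the Aoc1 starts, below it. By this ratio Fscn1 and Wnt3 were alike and the Aoc1 starts differed from them, and the genes without a window were not compared. A match of letters shows neither binding nor use of a site.

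Other genes of each family or pathway were read from lists that leave out the 7 genes. A gene whose lower group reached 10 counts in at most 1 library owes its place in the table to its higher group and is called listed through that group. Its direction is tied to its being listed, so such genes are described by counts without a test. Of all tested genes 731 were listed through knockout and 178 through WT, and of the other 14452 genes 47.4% were called (median -0.01 on the log2 scale). Keratin and cornified envelope genes, which build the scaffold and desmosomes of epidermis, had 11 of 30 tested, of which 6 rose, 2 fell and 3 were not called. The share called was 72.7%, against 47.6% of all genes, and the median log2 fold change was 0.98. Of the 6, Krt6b and Ppl were listed through knockout. Among the other 9 genes 4 rose, 2 fell and 3 were not called (66.7% called, median 0.67). Krt17, the keratin gene beside Krt16, was at 0.432, 0.445 and 0.519 CPM in WT against 2.13, 3.46 and 3.26 CPM in knockout (2.65 ± 0.26, adjusted p = 6.3e-05). Dsp, which encodes the desmosome protein desmoplakin, rose from 4.53 ± 0.935 to 14.5 ± 0.646 CPM (1.68 ± 0.15, adjusted p = 4.4e-05). Pkp3, a plakophilin gene, and Tgm1, a transglutaminase gene of the cornified envelope, fell by 0.92 and 1.58 on the log2 scale. Krt6b, a type II keratin gene named after its values were seen, had 3, 6 and 7 counts in WT and 34, 17 and 16 counts in knockout. The 3 not called, named after their values were seen, were Krt10, Sfn and Krt18, and Krt18 (adjusted p = 0.0597) passed with upper-quartile scaling alone. Krt1, Krt5, Krt8 and Krt14 had no value here. For Jup, the plakoglobin gene, named after its values were seen, the call (adjusted p = 0.0341) ended without WT replicate 1, knockout replicate 1 or knockout replicate 3. Ppl (periplakin) had 1, 5 and 0 counts in WT and 16, 16 and 10 counts in knockout.

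Of 27 tested actin bundling and protrusion genes, 4 rose, 10 fell and 13 were not called (51.9% called, against 47.6% of all genes, median -0.11). With upper-quartile scaling 6 rose and 6 fell, so the split depends on the scaling and the share called is near that of all genes. Of the 4, Pls1 and Espnl were listed through knockout. Among the other 25 genes 2 rose, 10 fell and 13 were not called (48.0% called, median -0.13). Espn, another actin bundler, fell from 41.9 ± 1.53 to 23.1 ± 0.952 CPM (-0.86 ± 0.07, adjusted p = 2.68e-05). Diaph1, a formin, and Vasp, a filament elongation factor, fell by 0.53 and 0.54. Baiap2, which encodes the filopodial membrane-bending protein IRSp53, rose by 1.07 ± 0.09 (adjusted p = 3.12e-05). Pls1 (plastin 1), a bundler gene named after its values were seen, had 8, 5 and 7 counts in WT and 41, 31 and 42 counts in knockout. Espnl, named likewise, had 5, 4 and 8 counts in WT and 30, 15 and 19 counts in knockout.

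Aquaporins other than Aqp4 were few, with 4 of 11 tested. Of these 0 rose, 1 fell and 3 were not called (25% called, against 47.6% of all genes, median 0.51). Aqp11 fell from 0.837 to 0.407 CPM (adjusted p = 0.0375) with overlapping groups, and leaving out any library except WT replicate 2 ended that call. Aqp3, a glycerol and water channel, was at 47.7 ± 6.202 and 60.2 ± 11.8 CPM (0.34 ± 0.16, adjusted p = 0.12; named after its values were seen). Its call was made by DESeq2, with the replicate block, without knockout replicate 2 and without the 3 libraries with raised B cell markers (adjusted p from 0.00257 to 0.326 over its alternatives). With the replicate number as a block, 3 aquaporins were called higher and 1 lower.

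Of ferlins and genes of membrane repair 18 were tested. Among them 2 rose, 10 fell and 6 were not called (66.7% called, against 47.6% of all genes, median -0.30). The annexin genes Anxa6 and Anxa7 fell by 0.83 and 0.70 (adjusted p = 1.93e-05 and 7.05e-05), and the calpain genes Capn2 and Capns1 by 0.94 and 0.66. The ferlins themselves, Dysf (dysferlin) and Myof (myoferlin), named after their values were seen, were not called (adjusted p = 0.154 and 0.241). Dysf was at 0.497 and 0.299 CPM and Myof at 2.65 and 2.11 CPM in WT and knockout.

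In endocannabinoid synthesis and breakdown 25 genes were tested, of which 2 rose, 9 fell and 14 were not called. That is 44.0% called, near the 47.6% of all genes, with a median of -0.17. With upper-quartile scaling 3 rose and 7 fell. Faah, the amide hydrolase that degrades anandamide, fell from 71.1 to 47.0 CPM (-0.60 ± 0.08, adjusted p = 0.000255). Abhd12, which hydrolyses 2-arachidonoylglycerol, fell by 0.32, Dgkh, a diacylglycerol kinase gene, by 0.87, and Acsl4, an arachidonoyl-CoA synthetase, by 0.70. Daglb, the paralog of Dagla and the form of immune cells, was at 10.8 and 11.8 CPM (0.13 ± 0.11, adjusted p = 0.356). Ptgs2, which encodes cyclooxygenase 2 and is 1 of the 2 that rose, was listed through knockout. It had 9, 19 and 4 counts in WT and 40, 79 and 46 counts in knockout. Among the other 24 genes of the list 1 rose, 9 fell and 14 were not called (41.7% called, median -0.19). Daglb and Ptgs2 were named after their values were seen.

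In diamine and polyamine turnover 20 genes were tested, of which 2 rose, 7 fell and 11 were not called. That is 45.0% called, near the 47.6% of all genes, with a median of -0.02. With upper-quartile scaling 3 rose and 6 fell. Smox, spermine oxidase, fell from 64.1 to 27.5 CPM (-1.22 ± 0.10, adjusted p = 2.66e-05), Paox, the peroxisomal polyamine oxidase, by 0.70, and Odc1, which makes putrescine, by 0.52. Aoc2, a copper amine oxidase related to Aoc1, rose from 8.16 ± 0.74 to 12.9 ± 0.882 CPM (0.66 ± 0.11, adjusted p = 0.00105). The third oxidase, Aoc3, named after its values were seen, was listed through knockout. It had 5, 9 and 3 counts in WT and 17, 10 and 11 counts in knockout. Among the other 19 genes of the list 2 rose, 7 fell and 10 were not called (47.4% called, median -0.04).

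Of Wnt ligands, secretion factors, receptors and targets, 36 of 71 were tested, 13 rose, 7 fell and 16 were not called. That is 55.6% called, against 47.6% of all genes, with a median of 0.17. With upper-quartile scaling 16 rose and 5 fell. Without WT replicate 1, 13 were called in all. Of the 13 that rose with all 6 libraries, Fzd3 and Ccnd1 were listed through knockout, and among the other 34 genes 11 rose, 7 fell and 16 were not called (52.9% called, median 0.13). Fzd3, a Wnt receptor gene, had 1, 1 and 3 counts in WT and 25, 23 and 18 counts in knockout. Apc, a scaffold of the β-catenin destruction complex, rose by 0.52 ± 0.06, the DNA-binding factor gene Tcf7l1 by 1.04 ± 0.19 and the corepressor gene Tle3 by 0.34 ± 0.06. Only 2 other ligands were tested, both named after their values were seen. Wnt10b was at 9.42 ± 2.67 and 22.5 ± 7.34 CPM (1.26 ± 0.31, adjusted p = 0.0193), a call that ended without WT replicate 1 or WT replicate 2, and Wnt5b was at 0.528 and 0.311 CPM (adjusted p = 0.0842). Axin2, a feedback target of β-catenin signalling named after its values were seen, fell from 11.6 ± 1.5 to 8.38 ± 0.295 CPM (-0.46 ± 0.12, adjusted p = 0.0103). Without the 3 libraries with raised B cell markers, which leaves 1 knockout library, its log2 fold change was -0.34 and the call was lost (adjusted p = 0.161).

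**Figure D3:**
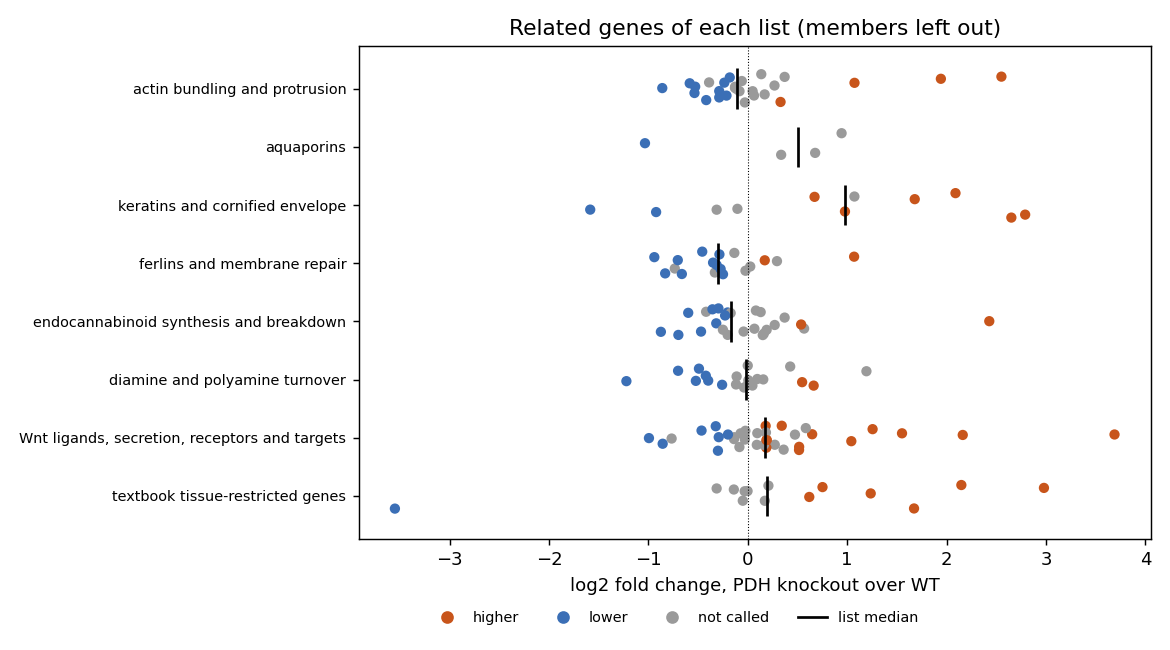
Log2 fold change of knockout over WT (x axis) for each tested gene of the 8 lists (rows), with the 7 genes left out, coloured by call, and a black bar at each list's median. The medians run from -0.30 for ferlins and membrane repair to 0.98 for keratins and cornified envelope.

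A list of 61 textbook tissue-restricted genes (liver, brain, skin, gut, muscle, gland and germ line) gave 14 tested genes. Of these 6 rose, 1 fell and 7 were not called (50% called, near the 47.6% of all genes, median 0.19). Mbp, myelin basic protein, whose locus also makes transcripts in lymphocytes, rose from 108 ± 5.35 to 181.6 ± 10.97 CPM (0.75 ± 0.07, adjusted p = 3.91e-05). Of the 6 that rose, Col2a1, Tnnt2 and Amh were listed through knockout, and Muc2, not called, through WT. Among the other 10 genes 3 rose, 1 fell and 6 were not called (40% called, median 0.08). Col2a1, the cartilage collagen, had 4, 5 and 4 counts in WT and 16, 27 and 13 counts in knockout. Tnnt2, cardiac troponin T, had 0, 3 and 2 counts in WT and 12, 17 and 11 counts in knockout. Tg, thyroglobulin, went the other way, from 45.2 ± 9.78 to 3.88 ± 1.20 CPM (-3.55 ± 0.29, adjusted p = 0.000305). The rest of the list had no value here, and the table holds no gene with fewer than 10 counts in all but 2 libraries.

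The 3 nearest protein-coding genes on each side of each of the 7 genes in the GENCODE M21 order gave 25 tested genes. Of these 8 rose, 5 fell and 12 were not called (52.0% called, near the 47.6% of all genes, median 0.12). With upper-quartile scaling 13 rose and 3 fell. Without knockout replicate 3, 8 were called in all. Beside Aoc1 lie Tmem176a and Tmem176b, ion channel genes of RORγt+ lymphocytes and myeloid cells. Tmem176a was at 21.8, 30.6 and 23.1 CPM in WT against 79.1, 72.0 and 79.8 CPM in knockout (1.61 ± 0.12, adjusted p = 3.65e-05). Tmem176b was at 19.97, 29.65 and 19.64 CPM in WT against 55.7, 55.2 and 61.4 CPM in knockout (1.31 ± 0.16, adjusted p = 0.000583). Gimap3, beyond them, fell by 0.28 (adjusted p = 0.0386), and leaving out any library except knockout replicate 2 ended its call. Krt17, in the keratin list too, is the gene next to Krt16 and rose, while Eif1, the third gene on that side, was not called (0.195 ± 0.08, adjusted p = 0.0779), though it passed without WT replicate 2.

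At the other 5 places the log2 fold changes of the tested neighbours lay between -0.88 and 1.10. Actb, β-actin, next to Fscn1, was at 4149 ± 347 and 4151 ± 64.7 CPM (0.00 ± 0.08, adjusted p = 0.994). On the same side Fbxl18 and Tnrc18 were not called, and on the other side Rnf216, Olfr718-ps1 and Rbak rose by 0.25, 0.79 and 0.79. The Rnf216 call ended without WT replicate 1, knockout replicate 1 or knockout replicate 3, and the Olfr718-ps1 call without knockout replicate 3. Near Aqp4, Kctd1 (0.22 ± 0.16) and Taf4b (0.15 ± 0.07) were not called. Near Fer1l6, Fbxo32 rose by 0.64 and Tmem65 fell by 0.40, and Fam91a1, Trmt12 and Rnf139 were not called, Trmt12 passing without WT replicate 2. Near Dagla, Myrf, a neighbour on the same strand, was at 0.488 ± 0.177 and 0.268 ± 0.104 CPM (adjusted p = 0.104), Tmem258 fell by 0.61, and Fen1 was not called, passing without WT replicate 3. Ppp1r32 rose by 1.10 from a trace level, a call that ended without WT replicate 1 or knockout replicate 3. Near Wnt3, Nsf and Arf2 fell by 0.35 and 0.24 and Gosr2 was not called, and the Arf2 call ended without WT replicate 1, WT replicate 2 or knockout replicate 3.

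**Figure D4:**
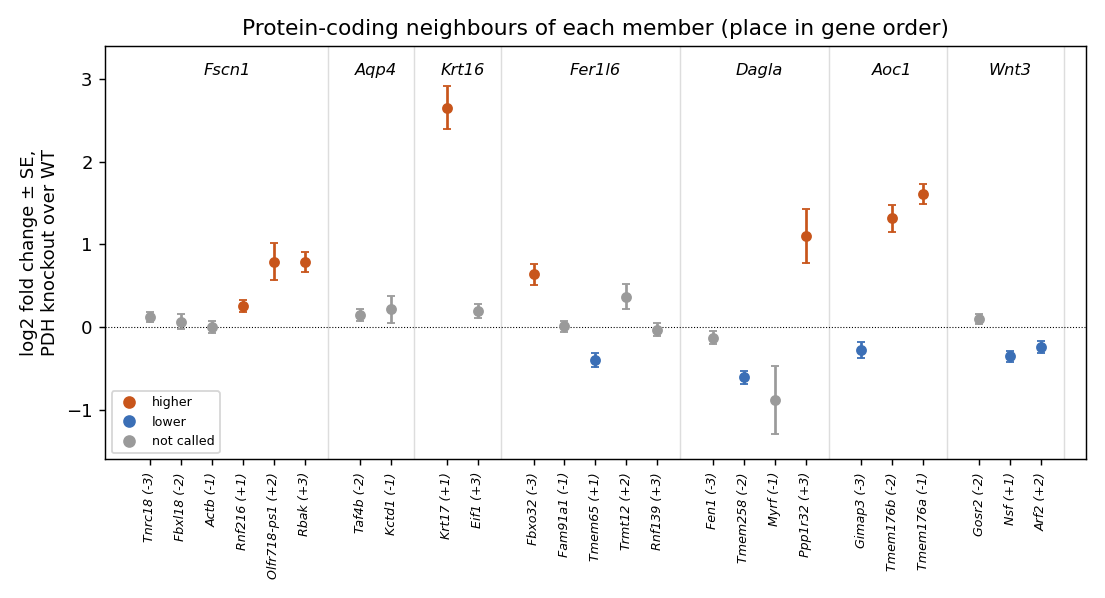
Log2 fold change of knockout over WT with its SE (y axis) for the 25 tested protein-coding neighbours, grouped by the gene they lie beside, with place in chromosome order in brackets and coloured by call. Krt17 (2.65), Tmem176a (1.61) and Tmem176b (1.31) stand highest.

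Genes with the most similar profile were found by Euclidean distance over log2 CPM in the 6 libraries. Closest to the mean of the 7 were Vcam1 (vascular cell adhesion molecule, distance 1.09), Ifit1 (an interferon-induced gene, 1.5), Dnah7a (an axonemal dynein, 1.57), Sp6 (an epithelial transcription factor, 1.67) and Ano7 (an anoctamin, 1.72). Vcam1 was at 0.27, 0.314 and 0.544 CPM in WT against 4.26, 5.38 and 4.62 CPM in knockout. Closest to single genes were Cd109 and Sh3bgrl2 for Fscn1, Pik3r3 and Dnah7a for Aqp4, Olfml2a and Klra17 for Krt16, Mmp10 and Olfml2a for Fer1l6, and Tgfbi and Dnah7a for Dagla. For Aoc1 they were Tgfbi (0.83) and Vcam1 (1.04), and for Wnt3 Spata31d1b (0.99) and Synpo2 (1.00). Spata31d1b and Synpo2 had their lowest knockout value in replicate 1, like Wnt3. That follows from choosing them by distance over the same libraries, so nothing is read from it. Of the genes named here Ifit1, Olfml2a, Klra17, Mmp10, Spata31d1b and Synpo2 were listed through knockout. Among the genes searched, which left out the 7, none was closer to Fscn1 than 3.27, and of the 7 Aqp4 was nearest to it (1.77), then Dagla (2.66).

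Near absence in WT was common in the table. A mean under 1 CPM in WT was found in 3176 genes, of which 1008 were called higher, and under 1 CPM in knockout in 2762, of which 247 were called lower. A gene near 0 in 1 group had to hold counts in the other to be in the table, so these counts are no support for the 7. With a mean of at least 5 CPM asked of the other group, 12 genes were gained in knockout and 1, Ramp3, was lost. Of the 12, 4 were Fscn1, Aqp4, Dagla and Aoc1. The others, named after their values were seen, were Rpl15-ps3, the unnamed protein-coding ID ENSMUSG00000116207.2, Pik3r3, Dnah7a, Grb10, Ciita and the predicted genes Gm14636 and Gm29055. Krt16, Fer1l6 and Wnt3 fell outside because their knockout means were 3.38, 3.43 and 2.28 CPM. Without WT replicate 2 the gained genes numbered 25 and without knockout replicate 1 they numbered 20, and the lost genes were 3 and 2 without knockout replicate 2 and 3.

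Markers of the cell types in which these genes are best known were summed per library (CPM of library totals). Of 14 dendritic cell markers 9 had counts, with a sum of 411 to 543 CPM in WT against 558 to 647 CPM in knockout, most of it Ccr7, which T cells also express. Without Ccr7 the sums were 39.9 to 46.6 and 93.9 to 123 CPM. Of these Cd83, also induced in activated lymphocytes, was at 13.0 ± 2.18 and 61.6 ± 9.35 CPM (adjusted p = 3.58e-05). Itgax was listed through knockout, with 1, 6 and 2 counts in WT and 14, 20 and 27 counts in knockout. Zbtb46 was called higher as well (log2 fold change 0.82, adjusted p = 0.0105). So were Cacnb3 (0.525, adjusted p = 0.00174) and Cd86 (0.325, adjusted p = 0.0328), all named after their values were seen. Flt3, Xcr1 and Ccr7 were not called. Ccl22 was at 1.11 CPM in knockout replicate 1 against 4.93 and 4.42 CPM in the other 2, and at 1.1 CPM in WT replicate 2. Its call (adjusted p = 0.0366) ended without WT replicate 1, WT replicate 3, knockout replicate 2 or knockout replicate 3. Clec9a, Siglech, Cd209a, Ccl17 and Il12b had no value here. Fscn1 was highest in knockout replicate 1, where 7 of the 9 dendritic cell markers were lowest of the 3 knockout libraries. The other 2 were Cd86, between the other libraries, and Xcr1, highest there. Some of these ranks rest on small differences, as for Ccr7 (464 against 474 and 524 CPM of library totals) and Cacnb3 (21.6 against 22.3 and 26.5). For Flt3 the difference was large (0.381 against 4.06 and 5.56). Fscn1 itself was close in knockout replicates 1 and 3 (23.1 and 21.2 CPM). The markers' part in the Fscn1 difference was not tested.

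Of 12 keratinocyte or epithelial markers 5 had counts, with sums of 5.25 to 7.30 CPM in WT against 17.0 to 18.8 CPM in knockout, most of it Dsp. Without Dsp they were 1.84 to 2.35 and 2.94 to 3.17 CPM. For the claudin gene Cldn4, of tight junctions, mean levels of 0.25 ± 0.0361 CPM in WT compared with 0.917 ± 0.0678 CPM in knockout (adjusted p = 0.000552). Grhl2, named after its values were seen, was called higher (0.93 ± 0.35, adjusted p = 0.0485). Krt18 was not called (1.07 ± 0.42, adjusted p = 0.0597). Epcam, the general epithelial marker, was not called either (-0.18 ± 0.22, adjusted p = 0.521). Krt5, Krt14, Krt8, Trp63 and Cdh1 had no value here, and the part of epithelial cells in the Krt16 difference was not tested. Of 9 astrocyte or ependymal markers 3 had counts, with overlapping sums (33.6 to 43.5 and 40.7 to 46.4 CPM), and Gfap, Slc1a2 and S100b had no value here. Sums also overlapped for neurons (3 of 9 markers, 12.5 to 14.7 and 12.3 to 16.9 CPM), intestine or kidney (2 of 10, 4.82 to 7.52 and 5.36 to 6.49 CPM) and monocytes or macrophages (4 of 11, 7.58 to 20.7 and 4.08 to 7.90 CPM). Single genes within these sums, named after their values were seen, differed in both directions. Tubb3 (1.35) and Map2 (0.50) rose and Gap43 (-0.85) fell (adjusted p = 0.00184, 0.0333 and 0.0223). Gja1 (0.30) rose and Aldoc (-0.345) fell (adjusted p = 0.0376 and 0.044). Cdh17, an intestinal marker, fell (-1.76, adjusted p = 0.0012). Aldh1l1, Lgals4 and the monocyte or macrophage markers were not called. Fibroblast markers (5 of 9) summed to 562 to 587 and 315 to 348 CPM, nearly all of it Thy1, a T cell gene as well, and 4.66 to 4.95 and 4.11 to 6.15 CPM without it. Of the endothelial markers only Pecam1 had counts (1 of 7, 16.7 to 19.7 and 11.2 to 12.5 CPM).

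B cell markers (9 of 9) differed between libraries of both groups, at 5.67, 30.7 and 5.22 CPM in WT replicates 1 to 3 and 4.77, 61.4 and 100 CPM in knockout replicates 1 to 3. Wnt3 was also lowest in knockout replicate 1. Without the 3 libraries with raised B cell markers (WT replicate 2 and knockout replicates 2 and 3), which leaves a single knockout library, the log2 fold changes were 6.05 for Fscn1, 4.81 for Aqp4, 5.12 for Krt16, 4.26 for Fer1l6, 4.61 for Dagla, 4.19 for Aoc1 and 2.71 for Wnt3. For Wnt3 that is lower than in all 6 libraries (3.63). In WT replicates 1 to 3 Wnt3 was at 0.054, 0.262 and 0.222 CPM, from only 2, 10 and 9 counts. Its order in replicates 2 and 3 is thus within counting error. Replicate 2 had the highest B cell sum of the WT libraries, and replicates 1 and 3 had sums like each other. The part of B cells in the Wnt3 difference was not tested.

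**Figure D5:**
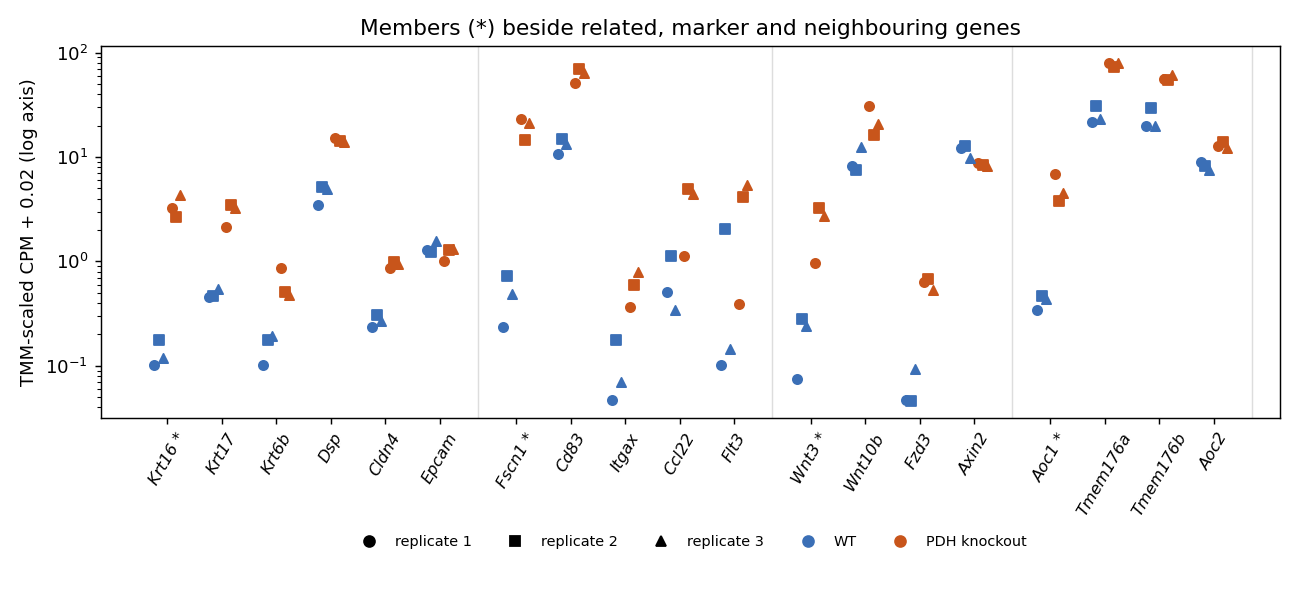
TMM-scaled CPM plus 0.02 (log axis) per library for 4 of the 7 genes (marked with an asterisk) and genes read beside them, with WT in blue, PDH knockout in orange and a symbol per replicate number. Of the genes beside Krt16 and Fscn1, Krt17, Krt6b, Dsp, Cldn4, Cd83, Itgax and Ccl22 are higher in all 3 knockout libraries. For Ccl22 the groups nearly touch (1.11 CPM in knockout replicate 1 against 1.1 CPM in WT replicate 2). Epcam and Flt3 overlap between the groups.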

How the data were processed

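The authors deposited estimated counts per gene as whole numbers. Per the submitters' processing notes, Salmon, DESeq2 and DESeq were used; the sources used here give no roles, versions, genome build or annotation. Per the labels' protocols, a stranded mRNA kit was used. In every row, 3 or more libraries reach 10 counts. Of 15452 IDs, 15138 matched GENCODE M21 names without the version. Library totals were 33802154 to 40407124, and a count of 0 allows up to 3 counts (0.0742 to 0.0888 CPM), counting error only.

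The counts were fitted in edgeR 4.0.16 (R 4.3.3) with filterByExpr (15361 genes kept), TMM, the robust quasi-likelihood model (genotype alone as term) and Benjamini-Hochberg adjustment over all tested genes. The fit was run on simulated counts with known fold changes, drawn from its own dispersions and with few changed genes. That is a check of the code and no support for the calls made here. SE is the log2 fold change over the root of F. log2 CPM used a prior count of 2. Members and lists were chosen with earlier results of these data known, and no p is given for the 7 genes. Named from each list were up to 4 called genes with the smallest p, or up to 2 of highest level where none was called, all tested neighbours, and the 5 (or 2 per gene) nearest profiles, without predicted genes, pseudogenes, receptor segments and genes on X or Y. Loricrin found no match. Alternatives were RLE, upper-quartile and library-total scaling, DESeq2 1.42.0, limma-voom (limma 3.58.1), no filter, at least 50 counts in at least 3 libraries, the replicate number as a block, other CPM bounds for gained and lost genes and each library left out. A fit without WT replicate 2 and knockout replicates 2 and 3, where B cell markers were raised, was added after the data were seen. Figures were drawn with matplotlib 3.10.9.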

Additional observations from a re-analysis of the deposited data

How the results depend on the processing

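The 7 genes kept their direction in every alternative run. That follows from how they were chosen in these same libraries, so nothing is read from it. Wnt3 was not tested with at least 50 counts in 3 libraries. Leaving out 1 library gave log2 fold changes from 4.04 to 4.96 for Fer1l6, 3.77 to 4.53 for Dagla, 5.06 to 5.81 for Fscn1, 4.77 to 4.96 for Aqp4, 4.67 to 5.18 for Krt16, 3.37 to 3.83 for Aoc1 and 3.21 to 4 for Wnt3. Without the 3 libraries with raised B cell markers Fscn1 was at 6.05, Dagla at 4.61, Aoc1 at 4.19 and Wnt3 at 2.71. Calls over all genes ran from 5308 to 7313 (7311 as reported). Called aquaporins (1 as reported) were 0 with upper-quartile scaling, limma-voom or at least 50 counts, 4 with the replicate block, 0 to 2 with 1 library left out and 3 without those 3 libraries. Called Wnt genes (20) were 13 to 18 with 1 library left out and 13 without the 3, neighbouring genes (13) 8 to 13 with 1 left out, and tissue-restricted genes (7) 3 with at least 50 counts and 4 without the 3. The counts of the other 5 lists stayed within 1.5 times under the 15 alternatives. Gained genes (12) were 6 with bounds of 0.5 and 5 CPM, 127 with 1 and 2 CPM, and 10 to 25 with 1 library left out, and lost genes (1) were 41 with 1 and 2 CPM, 1 to 3 with 1 left out and 5 without the 3. The cause of these shifts was not tested. Same-numbered libraries did not deviate together (correlations -0.098, 0.093 and -0.259), so the numbers are not taken as pairs. Libraries of unlike number gave -0.182 to 0.271. Deviations from a mean of 3 libraries are tied to each other, so this check cannot show whether any libraries shared a preparation. With the replicate block 7218 genes were called. At 2 to 27 counts in WT, the size of each fold is limited by counting error.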
